A study of Homo sapiens with 6 samples.

Results

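The sequences described here are the named DNA transposons of a table of human repeats. Members were taken by name: every sequence whose name starts, in any case, with Tigger, Charlie, Cheshire, HSMAR, HSTC, MADE, MARNA, Golem, Zombi, Zaphod, Kanga, Ricksha, Looper, Arthur, Blackjack, Fordprefect or ORSL. This gave 87 of the 1047 sequences in the table, and no name started with Arthur. By what the names stand for, 41 were of the mariner/Tigger type, 42 of the hAT type, and 4 (the 3 Ricksha names and Looper) of other types.

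A cut-and-paste DNA transposon encodes a transposase that binds the inverted repeats at the ends of the element, cuts the element out and inserts it elsewhere. Mariner elements (HSMAR1 and HSMAR2), Tigger, Golem, Zombi, Kanga and HSTC2 carry or once carried a transposase of the Tc1/mariner kind, whereas Charlie, Cheshire, Zaphod, Blackjack, Fordprefect and ORSL belong to the hAT superfamily. No DNA transposon is known to move in the human genome today. Old copies lie in introns, untranslated regions and intergenic DNA, so that RNA matching them can be part of longer host transcripts. HSMAR1 gave rise to the transposase part of the human gene SETMAR, and MADE1 is a short element with the ends of HSMAR1 and no transposase.

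RNA came from 6 libraries of H1 human embryonic stem cells, 1 established line, at passages 40 to 60 per the labels. All cells carried a short hairpin RNA against EXOSC3, switched on by doxycycline (dox); EXOSC3 is a subunit of the RNA exosome, which degrades and trims RNA from the 3′ end. The groups were EXOSC3r cells with dox (2 clones), EXOSC3r cells without dox (the same 2 clones), PB cells with dox (1 library) and PB cells without dox (1 library), where EXOSC3r is an EXOSC3 transgene that resists the hairpin and PB is the empty vector. The labels state no line that lacks the hairpin, so dox itself and the hairpin cannot be told apart. Dox was compared with no dox within each of the 3 lines. EXOSC3 itself is not in the table, so neither the depletion nor its rescue was checked here.

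Estimated counts assigned to the table summed to between 3745260 and 5260200 per library; these totals are not sequencing depth. Alu took between 33% and 52.5% of them, most in clone 1 with dox. That library also had the lowest TMM factor (TMM scales libraries to the bulk of their sequences), 0.744, against up to 1.21. Values per library below are TMM-scaled CPM, the count relative to the scaled library size. HERVH, a retroviral family known to be active in human pluripotent stem cells, and 4 of its LTR7 promoter sequences (LTR7A, LTR7B, LTR7C and LTR7Y) served as markers of the cell type. All 5 had counts in all 6 libraries, and they moved with dox and line, as given beside the results. Reads that matched several related sequences had been divided between them by estimation. In bulk RNA, fewer cells containing a transcript and less of it per cell cannot be told apart.

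Most of the DNA transposon RNA came from a few Tigger and mariner sequences. The 87 names together took 1.32% of assigned counts in clone 1 with dox (95% Clopper-Pearson interval 1.312 to 1.332, which covers counting error only), 1.49% in clone 1 without dox, 1.82% in clone 2 with dox, 1.67% in clone 2 without dox, 1.89% in PB cells with dox (1.876 to 1.901) and 1.80% in PB cells without dox. TIGGER1 alone made up between 44.1% and 45.9% of the members' counts in each library. Tigger3b followed with up to 8.75%, HSMAR1 with up to 7.78%, TIGGER2 with up to 6.29%, HSMAR2 with up to 5.76% and Tigger3c with up to 5.47%. Of the 18 members with a mean of at least 100 CPM, 14 were of the mariner/Tigger type, 3 of the hAT type (CHARLIE3, CHESHIRE_A and CHARLIE5), and RICKSHA was the other one.

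Among hAT-type names, 11 of 42 had no count in any library and 11 more never reached 10 counts, which left 20 for testing. Among mariner/Tigger-type names 5 of 41 had no count, 7 stayed under 10 counts and 29 were tested. All 4 of the other names were tested, so that 53 of the 87 members entered the tests, 18 had counts but too few and 16 had none. MARNA, a mariner relative, was among those without a count, and HSTC2, a Tc2-like element, had estimated counts of 0, 3.80 and 3.90 with dox, against 0, 0 and 2.04 without, in clone 1, clone 2 and PB cells. A count of 0 allows up to 3 counts, or between 0.542 and 0.767 CPM depending on the library. Over all names the median of the mean levels was 13.4 CPM for the mariner/Tigger type and 0.889 CPM for the hAT type.

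Per kilobase of effective length, which adjusts for the length of the consensus and for nothing else, the order changed. TIGGER1 stood at a mean of 3305 CPM per kb, GOLEM_A at 2485, CHESHIRE_A at 2320, Tigger3c at 1821 and TIGGER5A at 1442 CPM per kb. HSMAR1 was at 963 and HSMAR2 at 771 CPM per kb. MADE1 came out highest, at 4681 CPM per kb, but its consensus has 80 bases and an effective length of 16.7, so this value rests on a very short window. CHESHIRE_A, with an effective length of 84.9, and GOLEM_A, with one of 183, were short as well. GOLEM, whose sequence has 3029 bases, stood at 108 CPM per kb, far below GOLEM_A with its 335 bases. Over all names the median was 19.7 CPM per kb for the mariner/Tigger type and 0.488 for the hAT type, so hAT-type names were lower per length as well.

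**Figure D1:**
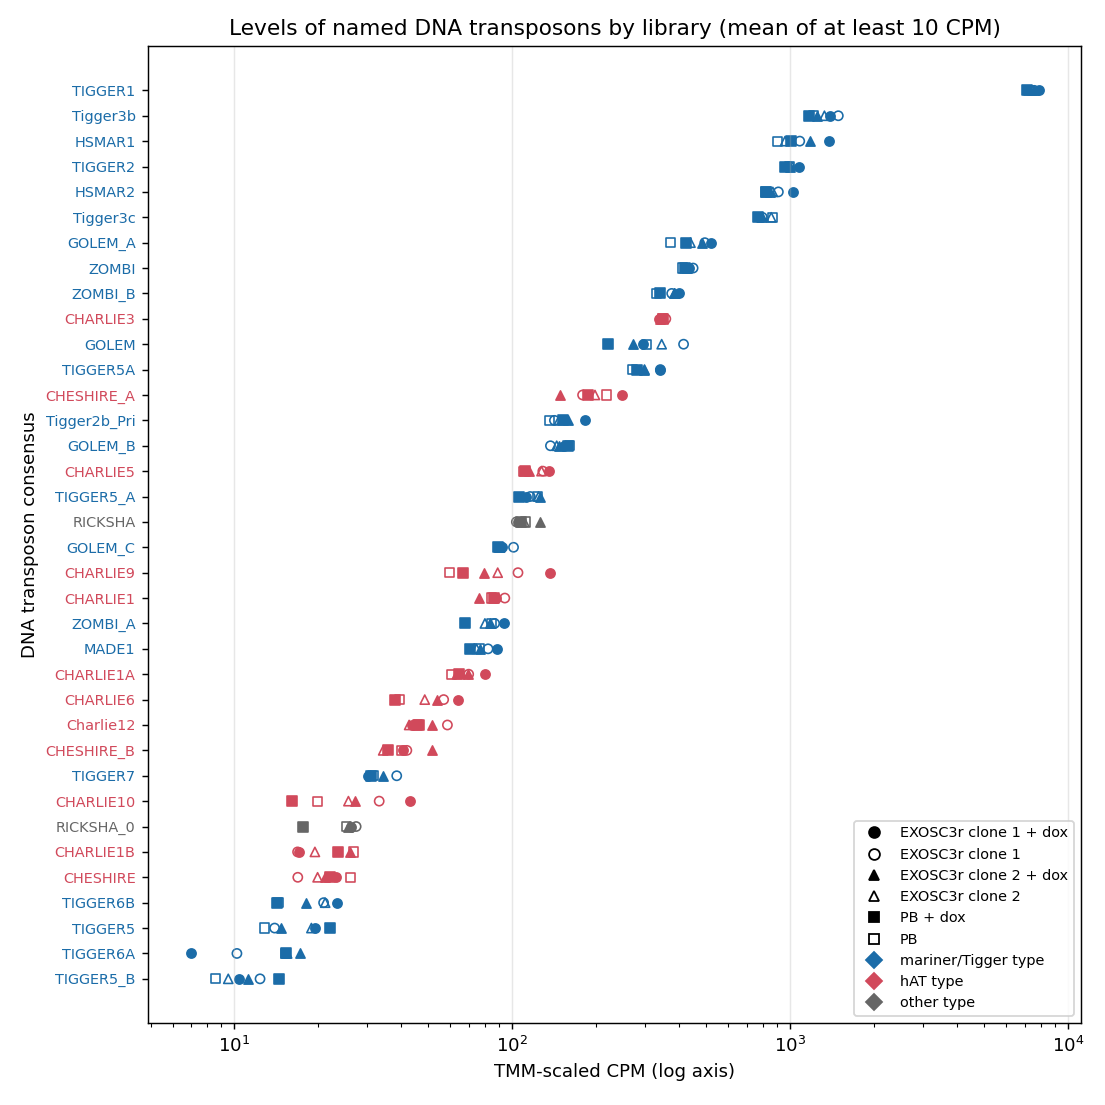
Level of each named DNA transposon with a mean of at least 10 CPM in each of the 6 libraries, as TMM-scaled CPM on a log axis; names are ordered by mean and coloured by type, filled symbols are dox and open symbols no dox. The highest 9 are all of the mariner/Tigger type, and TIGGER1 lies between 7146 and 7847 CPM in every library.

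For 22 of the 71 members with any count, the estimated counts were whole numbers in all 6 libraries (within 0.001), as when no read is divided with another sequence. Of these, 9 were tested: HSMAR2, Tigger9b, Tigger13a, CHARLIE6, CHARLIE7, CHARLIE9, Charlie18a, Charlie19a and LOOPER. For HSMAR1, GOLEM and the other tested members not every estimated count was whole, as when some reads are divided with other sequences. Which sequences those were was not examined.

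On the TMM scale the ratio of the highest to the lowest library was between 1.05 and 1.87 among the 18 members with a mean of at least 100 CPM. CHARLIE3 had the smallest ratio on that scale, between 338.8 and 357 CPM, and GOLEM the largest, between 222 and 414 CPM. CHESHIRE_A was next, with a ratio of 1.68, and then HSMAR1, with 1.53. As a share of all assigned counts the order was different: the ratios ran from 1.3 for HSMAR2 to 1.78 for RICKSHA, with 1.68 for CHARLIE3, 1.64 for GOLEM and 1.49 for TIGGER1.

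The first question was how these sequences differed between dox and no dox over all 3 lines. HSMAR1 rose and GOLEM fell with dox when the lines were analysed together, and no other member passed. HSMAR1 had 1383, 1183 and 1006 CPM with dox, against 1084, 959.6 and 903 CPM without, in clone 1, clone 2 and PB cells. It was higher with dox in each of the 3 lines, although the PB library with dox lay below clone 1 without dox, so that the groups overlap between lines. The change within lines was 0.27 ± 0.05 on the log2 scale, or 1.21-fold (SE; edgeR quasi-likelihood test with the line as a block, adjusted p = 0.0236 over 699 sequences).

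GOLEM, an element of the Tigger group, had 296, 271 and 222 CPM with dox, against 414, 345 and 305 CPM without, in clone 1, clone 2 and PB cells. All 3 libraries with dox lay below all 3 without, as was the case for 5.29% of the 699 sequences. The change was -0.43 ± 0.05 on the log2 scale, a ratio of 0.742 (adjusted p = 0.00116). In this comparison 1.72% of all sequences passed, 6 higher and 6 lower, and of the members 1 rose and 1 fell out of 53 tested. Before adjustment, 7 members had a p under 0.05, as had 10.3% of all sequences.

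In the same comparison 0 of the 5 pluripotency markers, looked at after their values were seen, rose and 2 fell, LTR7B with a log2 change of -0.38 ± 0.04 (adjusted p = 0.00141) and LTR7A with one of -0.37 ± 0.07 (adjusted p = 0.0227). HERVH had 20520, 21050 and 35680 CPM with dox, against 27570, 28170 and 28390 CPM without, in clone 1, clone 2 and PB cells. It was lower with dox in both clones and higher in PB cells, and did not pass (log2 change -0.17 ± 0.13, adjusted p = 0.708). The 5 markers together stood at 33060 to 49870 CPM with dox and at 44390 to 47720 CPM without. Their part in the changes of HSMAR1 and GOLEM was not tested.

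Both calls have limits. HSMAR1 did not pass with DESeq2 (adjusted p = 0.0565) or without the clone 2 line (0.314). It also missed the threshold in the fit where names of the same transposon were summed (0.0622). HSMAR1 is 1 name there, so nothing was added to it, and its log2 change was 0.27. Neither HSMAR1 nor GOLEM passed without the line as a block, with total counts, with scaling to ACTB and GAPDH or with limma on TPM (adjusted p from 0.228 to 1). The GOLEM change was lost when the 4 Golem names were summed.

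GOLEM_A, a shorter Golem sequence, had 520, 483 and 422 CPM with dox, against 494, 438 and 372 CPM without, in clone 1, clone 2 and PB cells. It was higher with dox in each line, with a log2 change of 0.13 ± 0.04 that did not pass (adjusted p = 0.235). The ratio of GOLEM to GOLEM_A counts, which needs no scaling between libraries, was 0.569 with dox and 0.839 without in clone 1, 0.562 with dox and 0.788 without in clone 2, and 0.526 with dox and 0.822 without in PB cells. GOLEM_B had 154, 147 and 159 CPM with dox, against 137, 145 and 161 CPM without, and GOLEM_C had 92.0, 90.0 and 88.7 CPM with dox, against 101, 90.7 and 90.2 CPM without, in the same order of lines. Summed, the 4 names stood at 1062, 991.9 and 891 CPM with dox, against 1146, 1019 and 928 CPM without, in clone 1, clone 2 and PB cells. The sum had a log2 change of -0.07 ± 0.04 (adjusted p = 0.587), and the ratio and the sum were chosen after the values were seen. Whether reads were divided differently between GOLEM and GOLEM_A in the libraries with dox was not tested.

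**Figure D2:**
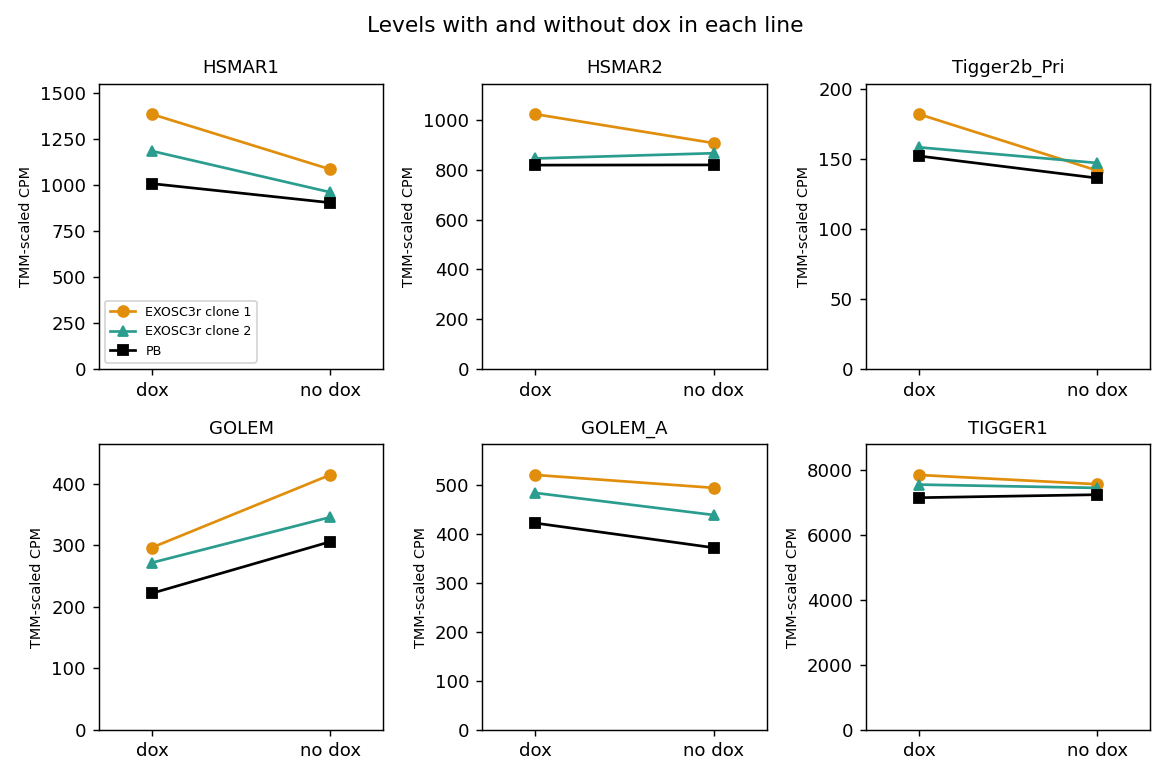
TMM-scaled CPM with dox (left of each panel) and without dox (right) for 6 members, 1 line of points per cell line, axes starting at 0. HSMAR1 and Tigger2b_Pri are higher with dox in each line, GOLEM is lower in each, GOLEM_A is higher in each, and HSMAR2 and TIGGER1 differ in direction between lines.

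HSMAR2, the other human mariner, had 1024, 846 and 819 CPM with dox, against 908, 867 and 820.1 CPM without, in clone 1, clone 2 and PB cells, and a log2 change of 0.05 ± 0.05 (adjusted p = 0.819). The ratio of HSMAR1 to HSMAR2 counts was 1.35 with dox and 1.19 without in clone 1, 1.40 with dox and 1.11 without in clone 2, and 1.23 with dox and 1.10 without in PB cells. This ratio was chosen after the values were seen, so it is no separate test of HSMAR1. It was higher with dox in each of the 3 lines. HSMAR2 counts were whole numbers in all 6 libraries, but HSMAR1 counts were not. MADE1 had 88.2, 76.4 and 70.8 CPM with dox, against 81.9, 74.5 and 76.1 CPM without, in the same order, with a log2 change of 0.01 ± 0.09 (adjusted p = 0.988).

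No sequence named Tigger passed. TIGGER1 had 7847, 7550 and 7146 CPM with dox, against 7562, 7448 and 7239 CPM without, in clone 1, clone 2 and PB cells, and a log2 change of 0.02 ± 0.05, with a 95% interval of -0.09 to 0.12. TIGGER2 had 1075, 1004 and 956 CPM with dox, against 994, 1000 and 994 CPM without. Tigger2b_Pri, a primate form of Tigger2, had 182, 159 and 152 CPM with dox, against 142, 147 and 137 CPM without. All 3 libraries with dox lay above all 3 without for Tigger2b_Pri, as for 7.73% of all sequences, with a log2 change of 0.21 ± 0.06 (adjusted p = 0.209). Tigger3c, with 766, 795 and 767 CPM with dox, against 795, 856 and 865 CPM without, was lower in each line (log2 change -0.11 ± 0.04, adjusted p = 0.387). Tigger3b had 1389, 1252 and 1173 CPM with dox, against 1492, 1330 and 1215 CPM without. It was lower with dox in each line as well, with a log2 change of -0.08 ± 0.04, and the sum of the 3 Tigger3 names had one of -0.09 ± 0.04 (adjusted p = 0.485).

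Zombi elements are relatives of Tigger. ZOMBI had 433, 427 and 420.1 CPM with dox, against 448, 426 and 409.7 CPM without, and ZOMBI_B had 400.2, 381 and 340.4 CPM with dox, against 375, 385 and 331 CPM without, in clone 1, clone 2 and PB cells. Their log2 changes were -0.002 ± 0.04 and 0.04 ± 0.04, and neither passed. Tigger12, a rare member, had 1.18, 3 and 4.46 CPM with dox, against 2.67, 5.40 and 9.32 CPM without. It was lower with dox in each line by a log2 change of -1.01 ± 0.33, which did not pass (adjusted p = 0.259) and rested on between 4.61 and 47.8 estimated counts per library.

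None of the 20 tested hAT-type names passed with dox over the 3 lines. CHARLIE3 had 339, 340.3 and 349 CPM with dox, against 357, 352 and 348 CPM without, in clone 1, clone 2 and PB cells (log2 change -0.04 ± 0.04, adjusted p = 0.815). The 3 Charlie1 names together stood at 184, 172 and 174.4 CPM with dox, against 181, 169 and 172 CPM without. CHARLIE1 itself had 87.2, 76.2 and 86.2 CPM with dox, against 94.1, 86.2 and 84.5 CPM without, and CHARLIE1A had 79.6, 69.6 and 64.5 CPM with dox, against 69.8, 63.4 and 60.5 CPM without. CHARLIE1B had 17.1, 26.1 and 23.7 CPM with dox, against 16.9, 19.5 and 26.8 CPM without. CHESHIRE_A had 249.6, 149 and 187 CPM with dox, against 179, 199 and 219 CPM without: it was higher with dox in clone 1 and lower in clone 2 and in PB cells. The hAT-type name with the smallest p was Zaphod3, with a log2 change of -1.24 ± 0.64 (adjusted p = 0.545), which rested on between 1.77 and 10.8 estimated counts.

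Of the remaining names, LOOPER, a piggyBac-like element, had 11.5, 11.2 and 9.93 CPM with dox, against 7.18, 8.5 and 7.61 CPM without, in clone 1, clone 2 and PB cells. All 3 libraries with dox lay above all 3 without, as for 7.73% of all sequences, on 29 to 55 counts per library. The log2 change was 0.48 ± 0.21 (adjusted p = 0.459). RICKSHA, of the MULE superfamily, had 105, 126 and 108 CPM with dox, against 104, 111 and 112 CPM without, in the same order.

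**Figure D3:**
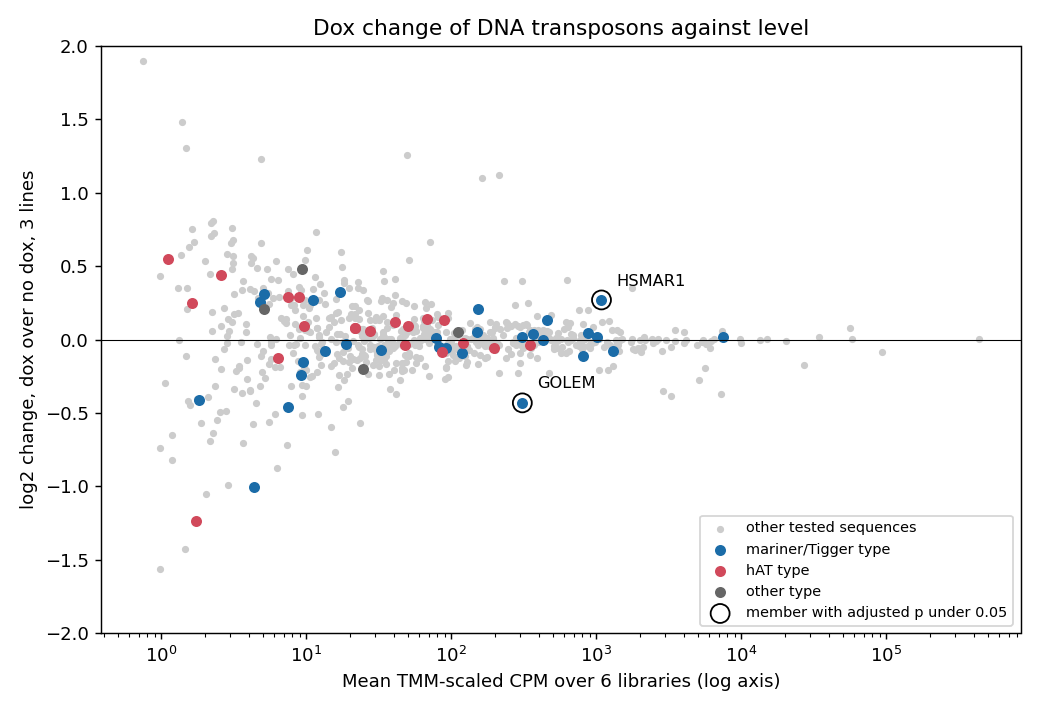
Log2 change with dox over the 3 lines against mean level (TMM-scaled CPM, log axis) for all tested sequences, with DNA transposons coloured by type and the 2 members past an adjusted p of 0.05 circled; 3 sequences, none of them a DNA transposon, lie outside the plotted range of -2 to 2. HSMAR1 (0.27) and GOLEM (-0.43) stand off the narrow band of other members of like level.

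The mariner/Tigger and hAT types were then set side by side. With dox the summed mariner/Tigger-type level was 16320 CPM in clone 1, 15310 CPM in clone 2 and 14340 CPM in PB cells, against 15710, 15160 and 14530 CPM without dox. The summed hAT-type level was 1309, 1103 and 1087 CPM with dox in the same lines, against 1207, 1152 and 1115 CPM without. These are log2 changes of 0.05, 0.01 and -0.02 for the mariner/Tigger type and of 0.12, -0.06 and -0.04 for the hAT type, in clone 1, clone 2 and PB cells. The signs depend on the scaling: with total counts the mariner/Tigger sum had log2 changes of -0.18, 0.13 and 0.07 and the hAT sum of -0.11, 0.05 and 0.05, in the same order of lines. On that scale clone 1 was lower with dox, and clone 2 and PB cells were higher, for both types. The ratio of the sums, which needs no scaling, was 12.5 with dox and 13.0 without in clone 1, 13.9 with dox and 13.2 without in clone 2, and 13.2 with dox and 13.0 without in PB cells. The ratio was lower with dox in clone 1 and higher with dox in clone 2 and PB cells.

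Counted over members, 3 of 29 mariner/Tigger-type names were higher with dox in each of the 3 lines (HSMAR1, GOLEM_A and Tigger2b_Pri) and 5 were lower in each. For the hAT type the counts were 2 and 1 of 20. Over all 699 sequences 16.6% were higher in each line and 15.7% lower in each, so these counts were near or under the background in both types. The median log2 change over the lines was -0.002 for the mariner/Tigger type, 0.09 for the hAT type and 0.005 over all sequences. Short MER-named relatives were counted too: of the 12 tested Tigger-type relatives 0 passed, with a median of 0.06, and of the 27 tested hAT-type relatives 0 passed, with a median of 0.02.

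Dox in PB cells, where no transgene replaces EXOSC3, gave no call among the 53 members (edgeR with 4 group means), while 0.858% of all 699 sequences passed. Before adjustment, 2 members (GOLEM and Tigger13a) had a p under 0.05, as had 4.01% of all sequences. GOLEM had a log2 change of -0.46 ± 0.15 (adjusted p = 0.912). Tigger13a had 3.58, 4.87 and 8.31 CPM with dox, against 5.20, 5.00 and 3.51 CPM without, in clone 1, clone 2 and PB cells, a log2 change in PB cells of 1.24 ± 0.50 on 46 and 18 counts (adjusted p = 1). HSMAR1 had a log2 change of 0.16 ± 0.14 (adjusted p = 1). TIGGER5, with 19.6, 14.8 and 22.1 CPM with dox, against 14.0, 19.0 and 12.9 CPM without, had a log2 change in PB cells of 0.77 ± 0.36. RICKSHA_0 had 26.3, 25.7 and 17.7 CPM with dox, against 27.5, 26.1 and 25.3 CPM without and a log2 change in PB cells of -0.52 ± 0.24. CHARLIE7 had 3, 5 and 10 counts with dox, against 8, 3 and 1 without, in clone 1, clone 2 and PB cells, too few for a fold. The median log2 change was -0.02 for the 29 mariner/Tigger-type names, 0.006 for the 20 hAT-type names and 0.004 over all sequences. DESeq2 also called 0 members, with 0.858% of all sequences called.

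In EXOSC3r cells, where the transgene resists the hairpin, no member passed either, and 0.143% of all sequences did. GOLEM averaged 284 ± 17.4 CPM with dox and 379.7 ± 48.5 CPM without (SD, n = 2 clones each), a log2 change of -0.42 ± 0.10 (edgeR adjusted p = 0.593), lower in 2 of 2 clones. HSMAR1 averaged 1283 ± 141 CPM with dox and 1022 ± 87.7 CPM without, a log2 change of 0.33 ± 0.10 (adjusted p = 0.897), higher in 2 of 2 clones. In a fit with clone as a block, both passed, HSMAR1 at an adjusted p of 0.0386 and GOLEM at 0.0411, with 1.29% of all sequences. That fit has 1 residual degree of freedom. Tigger4a, with 4.93, 5.67 and 7.94 CPM with dox, against 10.5, 8.09 and 7.39 CPM without in clone 1, clone 2 and PB cells, had a log2 change in EXOSC3r cells of -0.81 ± 0.33 (adjusted p = 1). Before adjustment, 3 members (GOLEM, HSMAR1 and Tigger4a) had a p under 0.05, as had 3.15% of all sequences. DESeq2 called 0 members and 0.572% of all sequences. The median log2 change was -0.01 for the mariner/Tigger type, 0.16 for the hAT type and 0.005 over all sequences.

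The dox response of PB cells was compared directly with that of EXOSC3r cells, and no member passed the test of the difference (0% of all sequences did). Before adjustment, 0 members and 1.29% of all sequences had a p under 0.05. DESeq2 and the fit with the line as a block each called 0 members, and each passed 0.429% of all sequences. The GOLEM response differed by -0.04 ± 0.18 on the log2 scale, PB minus EXOSC3r, with a 95% interval of -0.48 to 0.40. The HSMAR1 response differed by -0.17 ± 0.17, with an interval of -0.60 to 0.25. The members with the smallest p included Tigger13a (1.5 ± 0.63, adjusted p = 1) and ZOMBI_A (-0.41 ± 0.21, adjusted p = 1). ZOMBI_A, a Zombi sequence, had 93.3, 83.5 and 67.6 CPM with dox, against 86.5, 79.8 and 84.2 CPM without, in clone 1, clone 2 and PB cells, so that it was higher with dox in both clones and lower in PB cells. Kanga1, a Tc2-like element, had 1.26, 1.78 and 1.57 CPM with dox, against 0.329, 1.48 and 4.50 CPM without, on between 1.33 and 23.1 estimated counts. These intervals do not show that the lines responded alike.

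The last question was how EXOSC3r cells differed from PB cells. Under dox, most abundant mariner and Tigger sequences stood slightly higher in both EXOSC3r clones, with no call: 0 of 53 members passed and 1% of all sequences did, 7 in number and lower in EXOSC3r cells. Before adjustment, 6 members and 7.58% of all sequences had a p under 0.05. DESeq2 called 0 members and 1% of all sequences. Both clones lay above PB cells for 12 of the 14 mariner/Tigger-type names with a mean of at least 100 CPM and below for 1 (GOLEM_B). For all sequences at that level this was so for 105 of 253 above and 87 below, and of all 699 sequences both clones lay above PB for 34.2% and below for 33.6%. The median log2 difference was 0.17 for the 14 abundant mariner/Tigger-type names and 0.01 for the 253 sequences. It was 0.11 for all 29 tested mariner/Tigger-type names, 0.21 for the 20 hAT-type names and 0.006 for all sequences. The short MER-named relatives differed in the same direction, with a median of 0.12 for the 12 Tigger-type ones and 0.06 for the 27 hAT-type ones. Both clones lay above PB for 7 of the 12 and below for 2, and for 13 and 7 of the 27.

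HSMAR1 averaged 1283 ± 141 CPM in EXOSC3r cells with dox (SD, n = 2 clones), against 1006 CPM in PB cells with dox; on the log2 scale the difference was 0.35 ± 0.12 (edgeR adjusted p = 0.61). It passed with a block for the line (adjusted p = 0.0458, with 3.15% of all sequences), but in that fit the variation from clone to clone no longer counts as error, although lines are what is compared. GOLEM averaged 284 ± 17.4 CPM, against 222 CPM in PB cells; on the log2 scale the difference was 0.36 ± 0.13 (adjusted p = 0.61). ZOMBI_A differed by 0.39 ± 0.15 on the log2 scale and RICKSHA_0 by 0.56 ± 0.22, and neither passed.

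Some Charlie sequences differed more, without passing. CHARLIE10 had 42.8, 27.1 and 16.2 CPM with dox, against 33.2, 25.8 and 19.9 CPM without, in clone 1, clone 2 and PB cells, and under dox a log2 difference between EXOSC3r and PB cells of 1.10 ± 0.35 (adjusted p = 0.61). CHARLIE6 had 63.9, 53.8 and 37.9 CPM with dox, against 56.7, 48.5 and 39.4 CPM without, with a difference of 0.63 ± 0.20. CHARLIE9 had 137, 79.2 and 66.6 CPM with dox, against 105, 88.8 and 59.5 CPM without, with a difference of 0.69 ± 0.32. In these 3 names both clones lay above PB cells with and without dox, and clone 1 with dox was the highest library. Without the clone 2 library with dox, CHARLIE10 and CHARLIE9 passed, so that 1 library decides these calls; in that setting 3.02% of all sequences passed. The clones also differed from each other: under dox 18 of 53 members were higher in clone 2 than in clone 1, against 48.6% of all 699 sequences, and CHESHIRE_A was at 149 CPM in clone 2 and 249.6 CPM in clone 1.

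Without dox the same lines again gave 0 calls among the members, and 0% of all sequences passed. Before adjustment, 3 members (GOLEM_A, Kanga1 and GOLEM) had a p under 0.05, as had 2.29% of all sequences. DESeq2 called 0 members and 0% of all sequences. Both EXOSC3r clones lay above PB for 11 of the 14 abundant mariner/Tigger-type names and below for 2, and for 96 of the 253 sequences at that level above and 87 below. Of all 699 sequences, 34.5% lay above and 34.5% below. Of all 29 tested mariner/Tigger-type names 18 lay above and 6 below, and of the 20 hAT-type names 12 and 3. GOLEM_A averaged 466 ± 39.2 CPM in EXOSC3r cells, against 372 CPM in PB cells; on the log2 scale the difference was 0.33 ± 0.10 (adjusted p = 0.971). Kanga1, on few counts, had the largest difference of these 3 and ran the other way, at -2.33 ± 0.83 (adjusted p = 0.971). GOLEM differed by 0.31 ± 0.13, ZOMBI_B by 0.20 ± 0.08 and CHESHIRE by -0.51 ± 0.23, and none passed. CHESHIRE had 23.3, 21.1 and 22.1 CPM with dox, against 16.9, 20.0 and 26.2 CPM without, in clone 1, clone 2 and PB cells. The median log2 difference was 0.09 for the 29 mariner/Tigger-type names, 0.17 for the 20 hAT-type names and 0.01 over all sequences. For the short MER-named relatives it was 0.04 for the 12 Tigger-type ones and 0.06 for the 27 hAT-type ones.

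These differences between lines are relative to the bulk of sequences. As a share of all assigned counts the members were lower in EXOSC3r cells than in PB cells, at 1.32% and 1.82% in the clones with dox, against 1.89% in PB cells with dox, beside the larger Alu share of the clones. With total counts the median of all sequences moved by -0.40 under dox and by -0.26 without dox, and scaling to ACTB and GAPDH moved it by -0.63 and -0.47. The 5 pluripotency markers together stood at 35830 and 33060 CPM in the clones with dox, against 49870 CPM in PB cells with dox, and at 47720 and 44560 CPM in the clones without dox, against 44390 CPM in PB cells without dox. The part of library composition and of these markers in the differences was not tested.

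**Figure D4:**
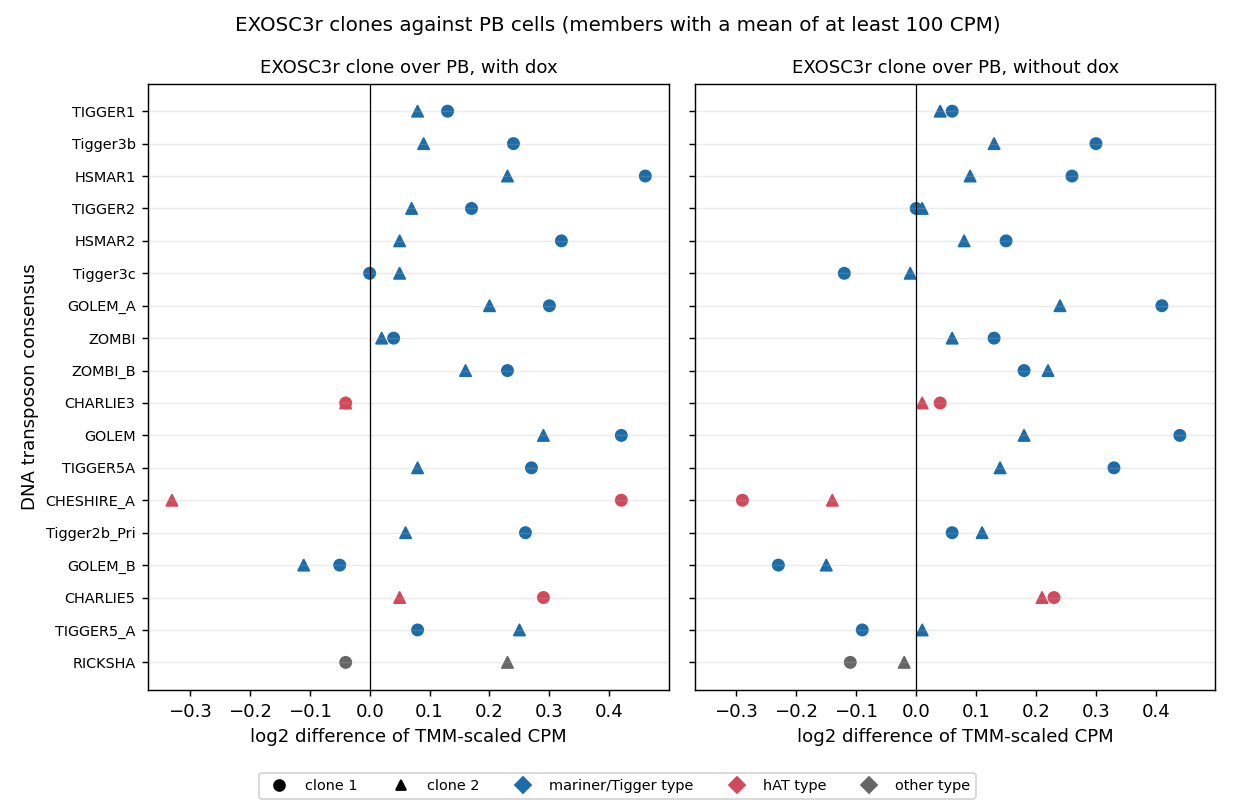
Log2 difference of TMM-scaled CPM between each EXOSC3r clone and PB cells, with dox (left) and without dox (right), for the 18 members with a mean of at least 100 CPM; circles are clone 1 and triangles clone 2. With dox, both clones lie right of 0 for 12 of the 14 mariner/Tigger-type names and for 1 of the 3 hAT-type names. Clone 1 reaches 0.46 for HSMAR1.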

How the data were processed

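RNA of 6 libraries was analysed. Libraries were stranded and depleted of ribosomal RNA, per the labels' protocols. Salmon 0.13.0, Trimmomatic 0.36 and bcl2fastq 2.17 are listed in the submitters' processing notes; index, options and build are not given in the sources used here. The deposited estimated counts, per the file headers, carry no normalisation. The deposited TPM values are per effective length within the table, so Alu, which takes much of each total, affects them. The authors' division of reads between related sequences makes single names uncertain. Consensus letters and genome positions were not used here.

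Counts were rounded, and 699 sequences with at least 10 counts in 1 library were tested with edgeR 4.0.16 (R 4.3.3): TMM scaling, quasi-likelihood test, Benjamini-Hochberg adjustment at 0.05 over all of them. Group comparisons used 4 group means (2 residual degrees of freedom, from the clones; a single PB library per arm is taken to vary as the clones do); the dox change over lines used line and dox (2). SE is the log2 change over the square root of F, and intervals use edgeR's total degrees of freedom. P-values measure the spread between these libraries, which may be technical. Clone libraries with and without dox are the same line, which pairs them; clone deviations correlated at 0.15 over 699 sequences, and at 0.60 over the 253 abundant ones (mean level from 100 CPM up). No 2 libraries were copies (chi-square per degree of freedom at least 21).

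By rule, full values are given for the 10 most abundant members, called ones, the 5 with the smallest p per comparison, and HSMAR1, HSMAR2, MADE1, HSTC2, MARNA, GOLEM and the Tigger1, Tigger2, Charlie1 and Charlie3 names. Members, types and lists were chosen with earlier results of these data known. Alternatives were DESeq2 1.42.0 and its size factors, total counts, ACTB and GAPDH scaling, 2 count filters, limma 3.58.1 on log2(TPM + 1) and log2(TPM + 0.1), leaving out Alu, ACTB and GAPDH, summed names, the block, and leaving out libraries. The code was checked on simulated counts that had no differences between lines other than the changes put in. That check does not cover the spread between the real lines.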

Additional observations from a re-analysis of the deposited data

How the results depend on the processing

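Summing the names of one transposon was an alternative chosen after seeing the data. Where a value changed, the cause was not tested. For the dox change over lines, 1 member rose and 1 fell. No member passed with total counts, with ACTB and GAPDH scaling or with limma on log2(TPM + 1) and log2(TPM + 0.1). The same held with names of one transposon summed and with no replicate block. In these settings 0% to 1.86% of all sequences passed. DESeq2 called 0 higher and 1 lower, with 1.29% of all sequences called. Leaving out 1 line gave 0 to 1 higher and 1 to 2 lower, where 1.01% to 4.03% of all sequences passed. The second lower member was CHESHIRE_A, called only without the clone 1 line, where 4.03% passed. Over 15 alternatives HSMAR1 changed by 0.23 to 0.32 and passed in 7, and GOLEM changed by -0.47 to -0.07 and passed in 9. With the line as a replicate block, 1 member rose and 1 fell in EXOSC3r cells and 1 was higher in EXOSC3r than PB cells under dox, where the fits without a block called 0; the block changed no other member call. Leaving out a clone library gave 0 to 2 higher members in EXOSC3r than PB cells under dox.

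In the main fits the median log2 change for dox in EXOSC3r cells was 0.056 over members and 0.005 over all sequences. For the difference of responses these medians were -0.042 and -0.009, and for EXOSC3r over PB cells under dox 0.161 and 0.006. Relative to the median of all sequences, the member median in EXOSC3r cells with dox was 0.014 with total counts, 0.011 with ACTB and GAPDH scaling and -0.031 to 0.082 without a library. For the difference of responses it was 0.005 with no count filter and -0.074 to 0.023 without a library. For EXOSC3r over PB cells under dox it was 0.091 with no count filter, 0.082 with names of the same root summed and 0.092 to 0.169 without a library. With total counts the mariner/Tigger sum changed with dox by 0.070 in PB cells and by a clone mean of -0.026, made of -0.18 in clone 1 and 0.13 in clone 2; as TPM sums by 0.197 and a clone mean of -0.093, made of -0.35 and 0.16; and by 0.153 in PB cells with ACTB and GAPDH scaling; the hAT sum changed by 0.135 in PB cells with that scaling. The GOLEM difference of responses, PB minus EXOSC3r, was 0.02 with names of one transposon summed and -0.18 to 0.09 without a library (0.09 without clone 2 lacking dox, 0.03 without clone 1 with dox). The fits rest on 2 residual degrees of freedom, and no detection limit was computed for rare members.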
